A study of Rattus norvegicus with 9 samples.

Results

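The miRNA repertoire of resting, normally loaded rat soleus was described from the 3 control arrays of a series of 9 miRNA arrays. The control samples were soleus from male rats of the Sprague-Dawley strain, 6 months old, with no suspension. The other 6 arrays came from rats whose hindlimbs had been suspended, and they were not used here. The control arrays were taken by their titles alone, so no measured value chose them. Nothing in the labels says whether the 3 samples were separate animals. Each array carried 334 miRNA probes, 238 named for rat miRNAs and 96 for predicted ones, and each probe was printed as 9 repeat spots. No groups were compared, and no test was run: values are given per array, with the mean ± SD over 3 arrays (n = 3).

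MiRNAs are short RNAs that guide the Argonaute proteins to messenger RNAs and lower the translation or stability of their targets. They are cut from hairpin precursors, and bases 2 to 8 of the mature strand, the seed, carry most of the target pairing. Soleus is a postural muscle made mainly of slow, oxidative fibres, which express the slow myosin heavy chain. In striated muscle a small group of miRNAs, the myomiRs, is transcribed under muscle-specific control and in part from within myosin genes.

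The targets of the probes that led the arrays are shown first, because the brightest probes formed families with shared seeds. Sequences are the target sequences listed in the deposited files, written 5′ to 3′, with the seed in capitals. The first set holds the myomiRs, including miR-208, a miRNA of heart muscle, as the one of them near background.
miR-1: uGGAAUGUaaagaagugugua
miR-206: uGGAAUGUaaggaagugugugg
miR-133b: uUGGUCCCcuucaaccagcua
miR-133a: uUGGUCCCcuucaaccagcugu
miR-499: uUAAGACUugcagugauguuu
miR-208: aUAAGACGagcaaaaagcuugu

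The second set holds other leading probes, with miR-23a and miR-23b as targets that differ by 1 base, and let-7d beside miR-352, which carries nearly the same letters with a shifted seed.
miR-26a: uUCAAGUAauccaggauaggc
miR-23b: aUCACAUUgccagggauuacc
miR-23a: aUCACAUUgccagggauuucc
miR-29a: uAGCACCAucugaaaucgguu
let-7a: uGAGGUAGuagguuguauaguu
let-7d: aGAGGUAGuagguugcauagu
miR-352: aGAGUAGUagguugcauagua
miR-30c: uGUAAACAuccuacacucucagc
miR-126: uCGUACCGugaguaauaaugc

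Net brightness was the median of a probe's 9 spots minus the median of the 614 empty spots of the same array, in linear scanner units. A probe was above background when its spot median exceeded the 95th percentile of the empty spots, which lay at 43.0, 53.6 and 31.6 units on arrays 1, 2 and 3. A probe was taken as clearly present when its net brightness was at least 500 on all 3 arrays. Brightness depends on how well each probe binds and on the RNA it captures, so the order of light is not an order of copies. No spot exceeded 62914 units. The numbers of probes above background were 172, 157 and 184 on arrays 1, 2 and 3 (171.0 ± 13.5, SD, n = 3). Probes with a net brightness of at least 500 numbered 74, 73 and 71 (72.7 ± 1.53, n = 3). Array 3, with the lowest limit, had the most probes above background and the fewest at the level of 500.

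Of the 334 probes, 69 (20.7%) were clearly present. A further 80 were above background on all 3 arrays without reaching that level, which makes 149 probes (44.6%) above background throughout. Another 47 were above background on 1 or 2 arrays, and 138 (41.3%) on none. Every clearly present probe was a named rat miRNA, 69 of 238 (29.0%). Among the 96 predicted probes, none was clearly present, 5 were above background on all 3 arrays, 9 on some, and 82 (85.4%) on none. The clearly present probes had mean net brightnesses between 693.4 and 53033 with a median of 6327. The 138 probes without signal lay between -7.85 and 9.74 net units on any array. Together the clearly present probes held 97.9 ± 0.415% of the positive net light of all 334 probes (n = 3).

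**Figure D1:**
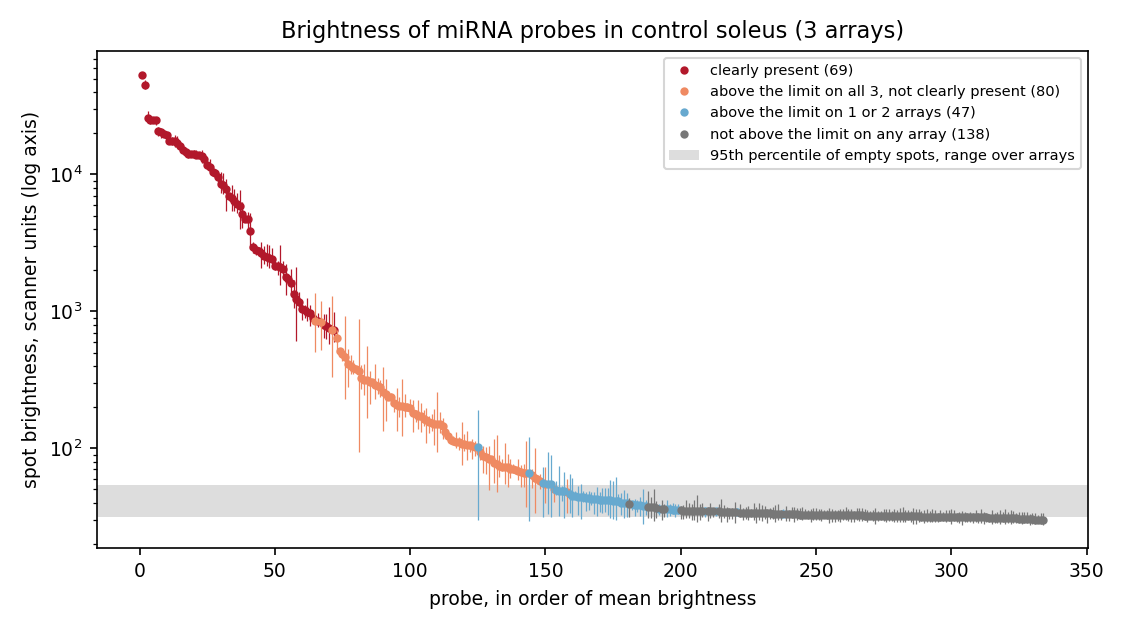
Mean spot brightness of the 334 probes (log axis, scanner units, background not subtracted) in order of that mean, with bars from the lowest to the highest of 3 control arrays and colours for the 4 classes. The grey band spans the empty-spot limits of the arrays, 31.6 to 53.6 units. The 69 clearly present probes cover the steep upper end, and the 138 probes without signal form the flat tail within or below the band.

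The brightest probe in resting soleus was miR-1, the miRNA shared by skeletal and heart muscle. It had net brightnesses of 53508, 54664 and 50927 units on arrays 1, 2 and 3 (53033 ± 1913, n = 3). Next came miR-206, which is specific to skeletal muscle and enriched in slow muscles, with 42047, 49141 and 43689 units (44959 ± 3714). The lowest array of miR-1 lay above the highest array of miR-206, and all arrays of miR-206 lay above every array of the probe that followed. Their targets differ by 2 bases, overhanging ends aside, and light from one on the probe of the other was not separated. These 2 probes alone held 14.4 ± 0.162% of the net light, the 10 brightest 41.1 ± 0.579% and the 20 brightest 64.3 ± 0.655% (n = 3).

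Another 4 probes followed whose ranges overlapped. MiR-26a, known to promote muscle differentiation in mouse cells, had 25071, 29131 and 23645 units. For miR-23b the values were 23433, 26532 and 25056 units, and for miR-133b they were 26325, 24797 and 23802 units. MiR-23a, which restrains translation of the atrophy-related ubiquitin ligases in mouse muscle, had 22909, 26235 and 25429 units. The third rank was held by miR-133b on array 1, by miR-26a on array 2 and by miR-23a on array 3, so these 4 had no fixed order.

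The last 4 of the 10 brightest were also intermingled. MiR-29a, a repressor of collagen messages, had 18976, 22012 and 20972 units. MiR-499, transcribed from within a myosin gene of slow muscle, had 20191, 21939 and 18506 units. MiR-133a, which restrains serum response factor in myoblasts, had 20061, 19543 and 19519 units (19708 ± 306.2), the smallest SD among the 20 brightest. Let-7a had 19035, 20484 and 18782 units. The 10 brightest probes were the same on each array, and 17 probes were among the 20 brightest of every array.

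Ranks 11 to 20 by mean were miR-30c, miR-30b, let-7f, miR-126, let-7c, let-7d, miR-27b, miR-24, miR-195 and let-7b, with means from 17583 units (miR-30c) to 14041 units (let-7b). Of the 19 pairs of neighbours among the 20 brightest, 15 overlapped in their ranges over arrays. The 4 that stood apart were miR-1 from miR-206, miR-206 from miR-26a, miR-23a from miR-29a, and let-7a from miR-30c. In all, 28 probes averaged at least 10000 units and 60 at least 1000 units.

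**Figure D2:**
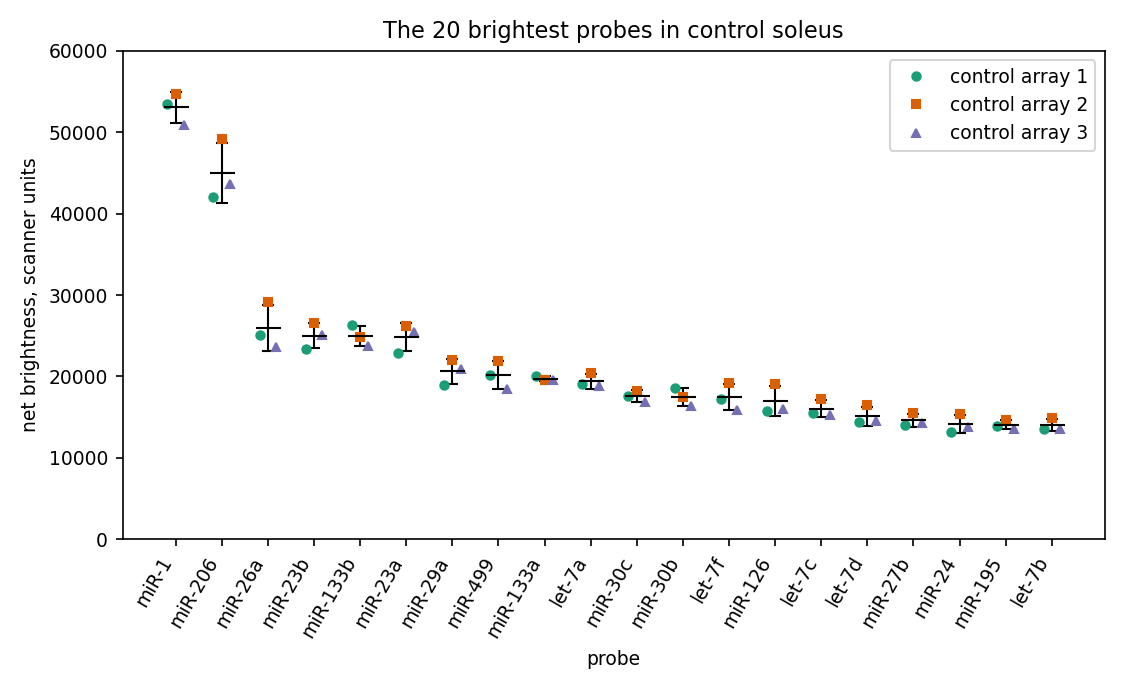
Net brightness (linear scanner units) of the 20 brightest probes, 1 point per control array, with the mean and SD over 3 arrays as a bar. MiR-1 at 53033 and miR-206 at 44959 units stand above the others, and from miR-26a at 25949 to let-7b at 14041 units most neighbours overlap.

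Because whole muscle was profiled, more cells of a type and more RNA per cell cannot be told apart in any of these values. The labelled tissue was checked against miRNAs known from striated muscle. Of 7 such probes on the array, 5 were clearly present, against 69 of all 238 named probes. The 5 were miR-1, miR-206, miR-133a, miR-133b and miR-499. Overhanging ends aside, the targets of miR-133b and miR-133a differ by 1 base and those of miR-1 and miR-206 by 2. Light shared within these pairs was not separated, so the 5 probes are not 5 independent signals. The 7 probes held 24.3%, 23.7% and 24.2% of the net light on arrays 1, 2 and 3, and their median mean brightness was 20212 units, against 6327 units for all clearly present probes. MiR-208, the heart form encoded within the gene of the alpha myosin heavy chain, had 20.5, 6.01 and 3.49 units and was above background on 2 arrays. MiR-499 and miR-208 are related, but their seeds as printed end in different letters.

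The remaining probe of the list, named miR-378, had 361.2, 208.2 and 103.7 units. By its target it reads the 5′ arm of a hairpin whose 3′ arm is on the array as miR-422b. That 3′ arm, now named miR-378a-3p, was clearly present with 7635, 5899 and 3982 units. The older name therefore attaches to the dim arm, and both arms ran in the same order over the arrays, with array 1 the highest. MiR-486 was not on the array.

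MyomiR hairpins are listed here with RefSeq coordinates on the rat build GRCr8. The hairpins of miR-133a and miR-1 lie on chromosome 18 between bases 2157872 and 2160413, on the minus strand and within the span of Mib1. The hairpins of miR-206 and miR-133b lie on chromosome 9 between bases 30590697 and 30594665, on the plus strand and within a long noncoding RNA. The miR-499 hairpin spans bases 164570612 to 164570676 of chromosome 3, within Myh7b, a slow-type myosin heavy chain gene. The miR-208 hairpin spans bases 32395552 to 32395634 of chromosome 15, within Myh6. In these tables the hairpins of 4 of the 5 bright myomiRs form a pair of loci, each with a miR-1 type and a miR-133 type hairpin. A probe does not tell from which hairpin a mature miRNA was cut.

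MiRNAs of the other cell types in whole muscle were also present. For endothelium, miR-126 had 15736, 19064 and 16034 units and was the 14th brightest probe. Its partner arm miR-126* was uneven, with 890.5, 190.0 and 220.6 units, and its 9 repeat spots on array 1 varied with a CV of 57.8%. The authors' deposited table has 1 for miR-126* on array 1, so the high value on that array does not hold there. Of 6 probes of smooth muscle and fibroblasts, 5 were clearly present, against 69 of all 238 named probes. The vascular smooth muscle pair miR-143 and miR-145 had 6813, 7375 and 6663 units and 7826, 5772 and 5383 units. MiR-22, also abundant in muscle fibres, had 10157, 7447 and 7219 units.

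MiR-21, a miRNA of many cell types that is strong in fibroblasts, had 5409, 9236 and 8609 units. MiR-214 had 2288, 2231 and 1799 units. MiR-199a missed the level of 500 on array 3 alone, with 1326, 646.5 and 475.3 units. These 6 probes held 5.05%, 4.55% and 4.65% of the net light.

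Blood cell miRNAs were mixed. MiR-150, a miRNA of mature lymphocytes, had 4016, 6260 and 4996 units. MiR-223, a miRNA of neutrophils and other myeloid cells, had 577.6, 949.2 and 2060 units, and it was the only clearly present probe that varied more than 2-fold over the 3 arrays. The red cell miRNA miR-451 ran the other way, with 1163, 732.7 and 493.5 units. MiR-144, encoded beside miR-451, was not above background on any array (2.89, -4.05 and 1.23 units). The leukocyte miRNA miR-142-3p was also without signal (6.36, -4.26 and 0.545 units), and miR-142-5p was above background on 2 arrays. The 6 blood probes together held 0.866%, 1.11% and 1.17% of the net light. The part of blood left in the tissue in these values was not tested.

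Probes of the nerve and brain list were mixed. The neuronal miR-124a had 14.7, -0.975 and 2.57 units, and miR-9 had 88.2, 6.27 and 0.285 units. Of the list's 14 probes, 2 were clearly present, 3 dim on all arrays, 4 above background on some and 5 on none. Of all 238 named probes, 69 were clearly present, 75 dim on all arrays, 38 above background on some and 56 on none. The 2 of the list that were present were miR-128a, with 2104, 3042 and 2248 units, and miR-128b, with 2032, 3021 and 2236 units. Their targets differ only by U22C (miR-128a base first, counted from the 5′ end), and their values were nearly equal on every array. MiR-128 is also known from muscle. The 3 dim ones were miR-132, at 82.6, 86.0 and 98.5 units, miR-218 at a mean of 29.4 and miR-7 at 38.6.

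Epithelial, liver, pancreatic and germline miRNAs gave little light. None of the 13 epithelial probes was clearly present, against 69 of all 238 named probes. Of the 13, 5 were dim on all arrays, 4 above background on some and 4 on none. Among all 238 named probes, 75 were dim on all arrays and 56 without signal. The 5 dim ones included miR-203, with 64.1, 61.2 and 52.4 units, miR-205 at a mean of 25.8 and miR-183 at 20.9. The miR-200 family members miR-200a, miR-200b, miR-200c, miR-141 and miR-429 had means between -3.08 and 8.74 units. The highest of the list were miR-192, with 204.4, 199.2 and 204.1 units, and miR-194, with 155.9, 172.9 and 167.6 units, whose hairpins lie together on chromosome 1. The liver miRNA miR-122a had 16.8, -1.92 and 2.00 units. The pancreatic miR-216 had 1.15, -1.70 and 1.89 units, and miR-217, above background on 1 array, had 1.87, -1.24 and 3.84 units. In the germline and early embryo list, miR-290 was dim on all arrays, with 289.2, 125.0 and 93.5 units, and miR-291-3p and miR-292-3p were without signal. MiR-292-5p was also dim on all arrays, with 19.3, 18.7 and 4.45 units, and miR-291-5p was above background on 1 array. The highest array for miR-290 was array 1.

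The imprinted Dlk1-Dio3 locus encodes a large set of miRNAs active in embryonic tissue and in muscle regeneration. Of 32 of its probes, none was clearly present, 15 were above background on all 3 arrays, 8 on some and 9 on none. Among all 238 named probes, 69 were clearly present, 144 above background on all 3 arrays, 38 on some and 56 on none. MiR-341 was the brightest of the 32 by mean, with 301.2, 1255 and 532.2 units, and array 2 stood far above the others. MiR-127 had 244.4, 206.9 and 294.7 units. The set held 0.262%, 0.354% and 0.314% of the net light.

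The let-7 family, a family of differentiated tissues, was present throughout. All 8 probes were clearly present, against 69 of all 238 named probes. The 8 had means from 19434 units (let-7a) to 4690 units (miR-98), and they held 15.7%, 16.2% and 15.6% of the net light. Each of the 8 was highest on array 2, as were many bright probes. Over the 69 clearly present probes the median log2 difference was -0.14 for array 1 minus array 2 and 0.15 for array 2 minus array 3.

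**Figure D3:**
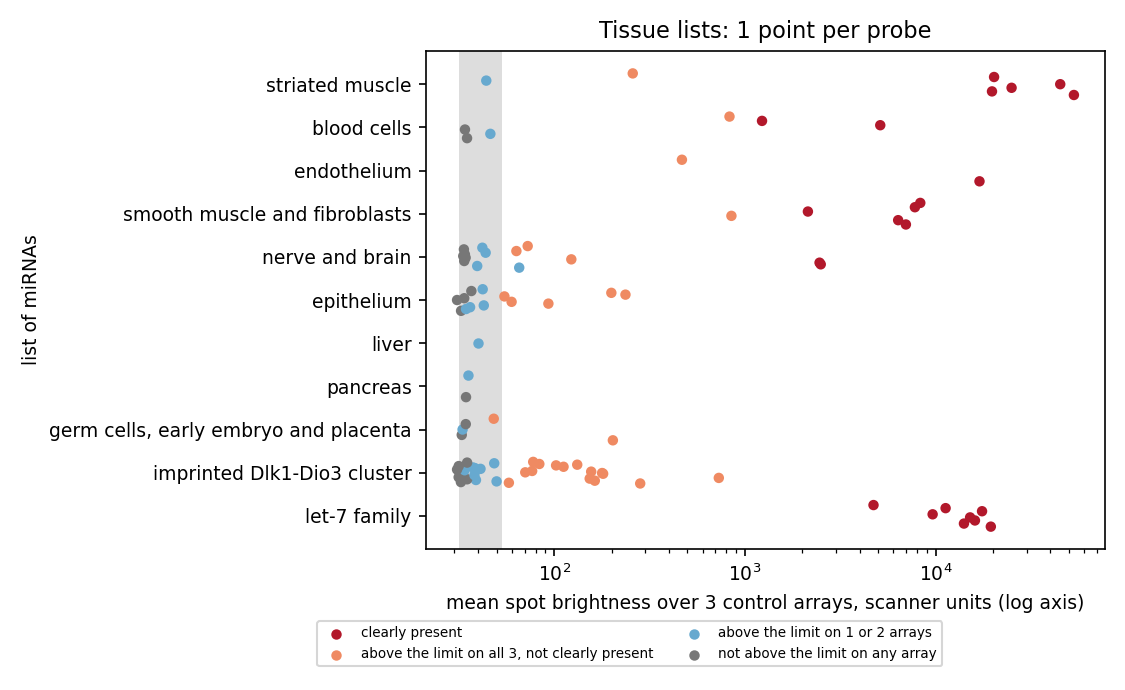
Mean spot brightness over the 3 control arrays (log axis, scanner units, background not subtracted), 1 point per probe, in rows for 11 lists of miRNAs and in the colours of the 4 classes. The grey band spans the empty-spot limits, 31.6 to 53.6 units. Striated muscle, smooth muscle and let-7 points lie mostly far right, and liver and pancreas points lie within the band.

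Probes that share a seed tended to share a class in some families and not in others. The 238 named probes held 184 different seeds, and 30 seeds were shared by at least 2 probes, 84 probes in all. For 12 of the 30 shared seeds every probe was clearly present, for 12 none was, and 6 were mixed. Of the 69 clearly present probes, 43 shared their seed with another clearly present probe, while 84 of all 238 named probes shared theirs with any. For 38 of the 69, another target differed by few bases, and light shared within such pairs was not separated. All 5 probes of the miR-30 family were clearly present, with means from 17583 units (miR-30c) to 8453 units (miR-30e). So were all 3 of the miR-29 family, at 20653 units for miR-29a, 10349 for miR-29c and 2619 for miR-29b.

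The seed of miR-15 and miR-16, miRNAs that restrain the cell cycle, was shared by 5 probes, of which 4 were clearly present. Their means were 14061 units for miR-195, 11770 for miR-16, 2754 for miR-424 and 944.2 for miR-15b. MiR-497, encoded beside miR-195 on chromosome 10, was dim at 377.4, 194.0 and 199.8 units. In contrast, the seed of the growth-promoting miR-17 family had 5 probes, all dim on every array. They were miR-106b at a mean of 475.8 units, miR-20a at 450.2, miR-17 at 342.3, miR-93 at 178.4 and miR-20b at 77.9. Among these the narrowest spread was that of miR-17, with 356.3, 330.0 and 340.4 units, when taken relative to its mean.

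Mixed seeds had members that were far apart. The seed of miR-125 gave 13634 units on average for miR-125b, 6683 for miR-125a and 169.8 for miR-351. In the miR-25 seed family, miR-25 had 1273, 2180 and 1815 units and miR-92 had 460.7, 684.0 and 660.4 units, while miR-32 and miR-363-3p averaged 1.74 and -0.895 units. MiR-181b averaged 1688 units and miR-181a 860.4, against 35.2 for miR-181c. MiR-34c, a miRNA of ciliated and germ cells, averaged -2.28 units, with miR-34a of the same seed dim at 127.9.

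Targets that differ by few bases can light each other's probes, and such light was not separated here. Among probe pairs of equal length with at most 2 substitutions, 25 pairs were found, and 15 of them held a clearly present probe. In 14 of the 15 both probes were clearly present. The means of 11 pairs lay within 2-fold of each other. A total of 38 of the 69 clearly present probes had at least 1 such near-identical partner when gaps and unequal lengths were counted too.

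The closest pairs were alike on each array. MiR-23b and miR-23a differ by A19U and averaged 25007 and 24857 units. MiR-27b and miR-27a differ by U19C and averaged 14617 and 13886 units. MiR-103 and miR-107, which lie in pantothenate kinase genes, differ by G22C and averaged 762.6 and 743.6 units. MiR-99a and miR-100 differ by U16A and averaged 2922 and 2738 units. Substitutions are written with the base of the brighter target first and are counted from 1 at the 5′ end.

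Other pairs were told apart by their probes, and the following targets are shown because 1 base went with a large difference in light.
miR-196a: uAGGUAGUuucauguuguugg
miR-196b: uAGGUAGUuuccuguuguugg
miR-101a: uACAGUACugugauaacugaag
miR-101b: uACAGUACugugauagcugaag
miR-19b: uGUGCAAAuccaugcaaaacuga
miR-19a: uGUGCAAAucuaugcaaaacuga
MiR-196a, encoded in a Hox gene cluster, had 1085, 1089 and 832.3 units. Its near copy miR-196b, which differs by A12C, averaged 72.2 units. MiR-101a and miR-101b differ by A16G and averaged 2064 and 726.0 units. MiR-19b and miR-19a differ by C11U, and miR-19b had 524.3, 182.6 and 137.6 units, against 25.5, -4.40 and 1.18 units for miR-19a. Both were highest on array 1, and miR-19a was above background there alone. All 3 changes lie at inner positions, whereas those of miR-103, miR-107, miR-128a and miR-128b lie at the 3′ end. Within the let-7 family, let-7a and let-7f differ by G12A, also an inner position, and averaged 19434 and 17474 units, which were close. MiR-99a and miR-100 differ by U16A and averaged 2922 and 2738 units. MiR-30a-5p and miR-30d differ by U12C and averaged 13713 and 10137 units. Inner changes thus went with both close and distant values. For a pair of probes, a difference in the RNA and a difference in binding cannot be told apart.

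MiR-352 had 5711, 7287 and 5204 units, and let-7d had 14425, 16467 and 14480 units. Their targets, printed above, differ by 1 gap when overhanging ends are not counted, and both were highest on array 2. Whether the miR-352 probe bound let-7d was not tested.

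Both arms of a hairpin were on the array for 28 pairs of probes, and 11 of these pairs had at least 1 clearly present arm. In all 11 the same arm was the brighter on each of the 3 arrays. That order was largely set by the choice of pairs, since in all but 2 the other arm was not clearly present. Among pairs without a clearly present arm the order could change. MiR-324-5p had 70.9, 54.8 and 37.2 units, and miR-324-3p had 70.5, 59.1 and 20.6 units. In the 11, the brighter arm was the 5′ arm in 4 of the 10 pairs with an arm assigned by RefSeq, and miR-151* with miR-151 was paired by name. In 2 pairs both arms were clearly present. MiR-30a-5p had 14153, 13650 and 13337 units and miR-30a-3p had 1973, 2412 and 1993 units. MiR-22 had the 3 values given above, and miR-22* had 2864, 2114 and 2136 units. Both arms of miR-22 were highest on array 1.

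Dim partners are shown for the widest pair and for a pair named against its brightness, since these carry the contrast.
miR-1*: gCACAUACuucuuuauguaccc
miR-422b: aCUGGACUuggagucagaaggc
miR-378: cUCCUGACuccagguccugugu
Beside miR-1 at 53033 units, miR-1* had 8.18, 33.5 and 2.70 units and was above background on 2 arrays. Let-7d* averaged 51.6 units beside let-7d at 15124, and miR-189 averaged 39.4 units beside miR-24 at 14135. MiR-29c* had 151.4, 98.0 and 100.6 units beside miR-29c at 10349. MiR-151* is the brighter arm of its hairpin in spite of the star, with 1293, 1984 and 1460 units against 122.0, 53.9 and 46.9 units for miR-151. MiR-181a* was near the limit (3.56, -1.62 and 2.57 units). Among the 9 pairs with 1 bright arm, the other arm was dim on all arrays in 7 and above background on 1 or 2 arrays in 2.

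**Figure D4:**
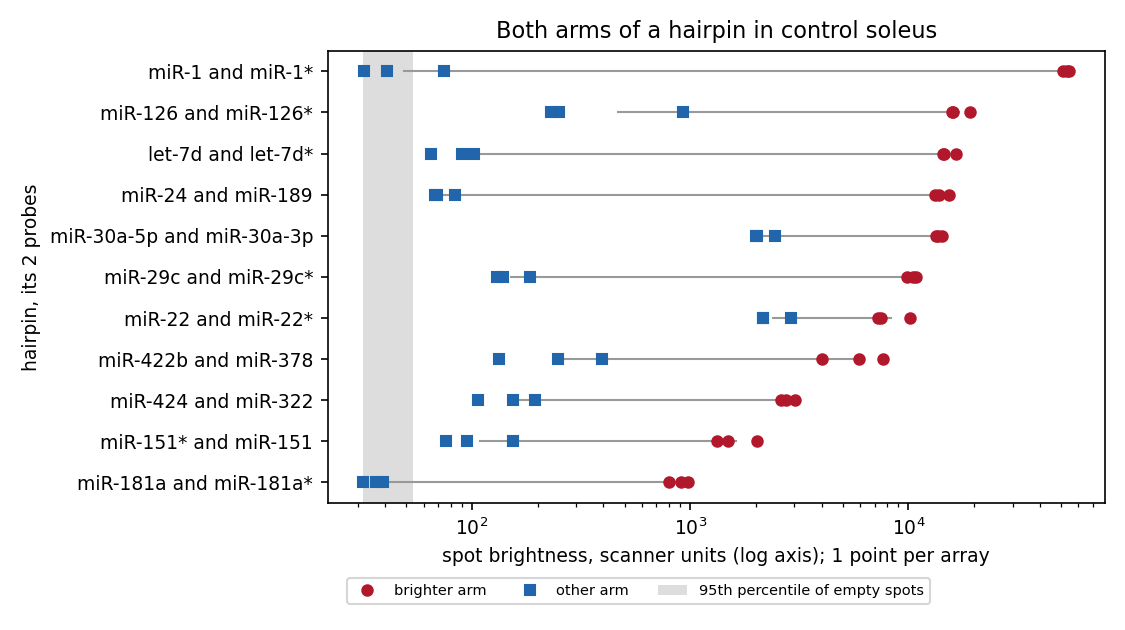
Spot brightness (log axis, scanner units, background not subtracted) of both arms of 11 hairpins, with the brighter arm as circles, the other arm as squares, 1 mark per control array, and a line joining the means. The grey band spans the empty-spot limits, 31.6 to 53.6 units. No square reaches the circles of its own row, and the arms of miR-22 and of miR-30a lie closest together.

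On GRCr8, 207 of the 238 named probes and 1 of the 96 predicted probes matched a RefSeq rat hairpin. Hairpins within 10 kb of each other formed 34 clusters, of which 13 held probes of a single class and 21 mixed classes. In 10 clusters every probe was clearly present, in 17 none was, and in none did a clearly present probe lie beside one without signal on any array. That last count rests on the low limit of array 3. MiR-542-5p, in a cluster with miR-424 and miR-450, had 1.28, -0.495 and 3.97 units and was above background on array 3 alone. Of all named probes, 29.0% were clearly present and 23.5% without signal. Whether the count differs from a random grouping of probes was not tested. The miR-23, miR-27 and miR-24 hairpins lie on chromosome 17 at bases 1818669 to 1819482, within the span of Aopep, and on chromosome 19 at bases 40859455 to 40859843. Their probes were all clearly present apart from miR-189, the dim other arm of the miR-24 hairpin.

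Among other all-present clusters were miR-99b, let-7e and miR-125a on chromosome 1, miR-99a with let-7c on chromosome 11, and miR-145 with miR-143 on chromosome 18, the last within Carmn, a long noncoding RNA of smooth muscle. The chromosome X cluster at bases 137720933 to 137726241 was graded. MiR-424 and miR-450 were clearly present at 2754 and 693.4 units on average, miR-351, miR-503 and miR-322 were dim, and miR-542-3p and miR-542-5p were above background on some arrays. The miR-17 to miR-92 cluster on chromosome 15 had no clearly present probe, with means from 0.725 to 601.7 units. MiR-25, in the gene Mcm7 on chromosome 12, was clearly present, and its neighbour miR-93 was dim.

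Several bright hairpins lie inside protein-coding genes. Those of miR-26a and miR-26b lie within Ctdspl and Ctdsp1, which encode related phosphatases, and the probes averaged 25949 and 12978 units. MiR-10b lies within the span of Hoxd4 and had 2811, 5159 and 3463 units, and miR-10a had 1022, 1643 and 1228 units. These Hox-linked miRNAs mark position along the body axis. MiR-30e and 1 of the 2 hairpins of miR-30c lie within Nfyc, and the other miR-30c hairpin lies within a long noncoding RNA on chromosome 9.

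Predicted miRNAs gave 5 probes above background on all arrays. MM_264 was the steadiest, with 258.7, 281.3 and 265.6 units. MM_105 had 840.1, 85.1 and 64.8 units, with array 1 far above the others. MM_79 had 243.0, 169.5 and 104.5 units, and MM_302 and MM_234 averaged 32.4 and 26.8 units with array 2 the highest. The targets of predicted probes had a median GC share of 54.5%, against 45.5% for named ones.

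Over the 149 probes above background on all arrays, log2 net brightness and GC share were weakly related across probes (Pearson's r = -0.25, Spearman's rho = -0.19). Target length had r = -0.08. These probes share the same 3 arrays and are not independent replicates.

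Replicate spread was small for the bright probes. The SD of log2 net brightness over the 3 arrays had a median of 0.16 among the 69 clearly present probes and 0.36 among the 80 dim ones. With array 1, 2 or 3 left out, the first median was 0.113, 0.098 and 0.158. Those SDs rest on 2 arrays each and are not directly comparable to the SD over 3. Of the 69, 55 stayed within 1.5-fold over the arrays. Among the dim ones, 23 of 80 varied beyond 2-fold. Log2 net brightness correlated across the 69 probes at 0.977, 0.977 and 0.991 for arrays 1 and 2, 1 and 3, and 2 and 3. After miR-223, the widest spreads among clearly present probes were those of miR-101a, miR-101b and miR-422b, all with array 1 the highest, and of miR-10b, with array 2 the highest. MiR-101a had 3005, 1659 and 1528 units.

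Array 1 stood apart for a few dim probes. Of the 149 probes above background throughout, 9 were more than 2-fold brighter on array 1 than on both other arrays, against 4 for array 2 and 1 for array 3. In the other direction, 0 were more than 2-fold dimmer on array 1 than on both others, 1 on array 2 and 4 on array 3. The 9 were MM_105, miR-126*, miR-186, miR-301, miR-19b, miR-337, miR-290, miR-151 and miR-199a, and none was clearly present. MiR-126* counts among them by the scanner spots only, since the authors' deposited table has 1 for it on array 1. The targets of the 9 had a median GC share of 39.1%, against 45.5% over the 149. Over all 149 probes, GC share and the log2 difference of array 1 from the mean of the others had r = -0.12 and rho = -0.08, against r = 0.37 and rho = 0.24 for array 2. The 26 probes under 40% GC had a median difference of 0.33 for array 1, and the 14 probes of at least 60% GC had 0.21.

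Spike-in probes with MM in their names did not behave alike. The probe a-PUC2MM2d had 1901, 196.9 and 172.8 units, and its PM counterpart a-PUC2PM had 13468, 12604 and 12847 units. Also highest on array 1 were a1-PUC2MM-20B (14.7, 1.94 and 1.33 units), a2-PUC2MM-20B (77.2 units on array 1, 2.72 on array 3 and between them on array 2) and a3-PUC2MM-20B (54.6, 14.1 and 1.38 units). PUC2MM was bright on all arrays, with 7046, 6635 and 7295 units, and PUC2MM-20B was not above background on any. The files do not spell out PM and MM. The part of these differences in the 9 probes was not tested.

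**Figure D5:**
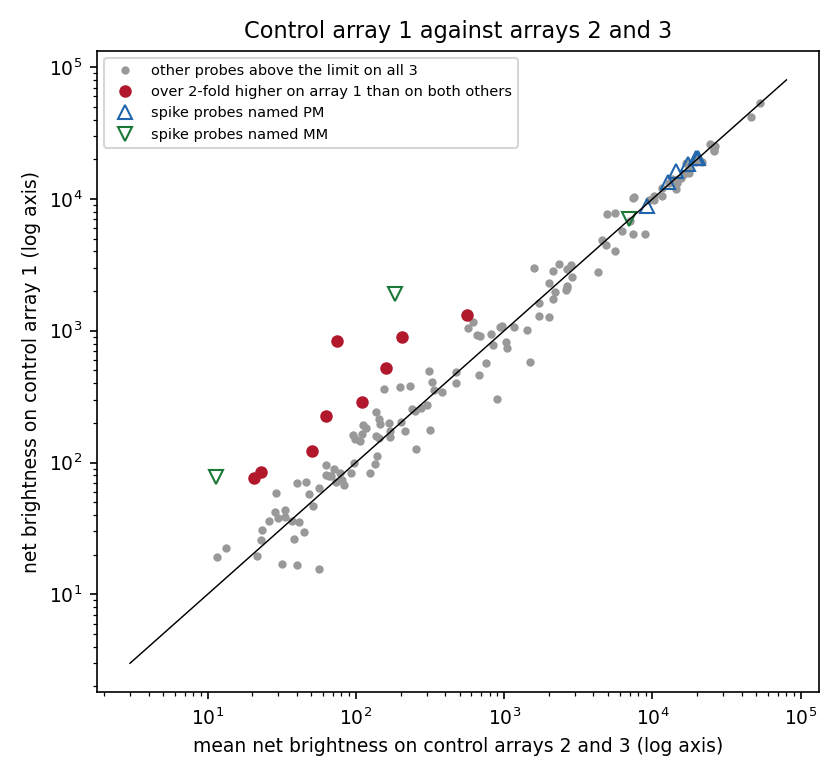
Net brightness on control array 1 (vertical log axis, scanner units) against the mean of control arrays 2 and 3 (horizontal log axis), 1 point per probe above background on all 3 arrays, with the line of equal values. Red points are the 9 probes over 2-fold higher on array 1 than on both others, and triangles are spike-in probes named PM or MM. Bright probes follow the line, the red points and 2 of the 3 MM triangles lie well above it, and the MM probe at 7046 units lies close to it.

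The 5S ribosomal RNA control probes were uneven between arrays. Probe 5S-b3 had 11914, 23954 and 16336 units, and probe 5S-b1 had 833.9, 3226 and 1419 units, lowest on array 1 and highest on array 2. Most calibration probes named Ctr lay below the limit on all arrays, and Ctr04C reached 102.3 units on array 1.

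The threshold of 500 units cut through a continuous range. Just inside it were miR-101b with 1041, 585.1 and 552.1 units, and miR-450 with 564.4, 948.9 and 567.1 units, followed by miR-223, miR-107 and miR-103. Of the probes outside it, those with the highest single array were miR-199a, miR-341, miR-451, miR-126* and MM_105, each of which passed 500 on at least 1 array. MiR-126* and MM_105 did so on array 1 alone and lay far below it on arrays 2 and 3. Closer on every array were miR-92, with 460.7, 684.0 and 660.4 units, and miR-106b, with 482.9, 492.8 and 451.9 units. At the empty-spot limit, spot brightness before subtraction was 117.8, 55.4 and 59.9 units for miR-337 and 54.8, 55.6 and 40.8 units for miR-210, a miRNA of hypoxia, both just above. MiR-382* with 35.9, 36.2 and 31.6 units and miR-219 with 33.3, 36.3 and 31.4 units were just below it.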

How the data were processed

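Per the labels' protocols, soleus total RNA was cleared of DNA, had an integrity number of 8.4 ± 0.5 on average over the series, and was assayed by a service provider from 5 µg. Small RNAs received a poly(A) tail and a tag for Cy5, the only dye. The labels give 234 rat probes from miRBase 9.0 and 96 predicted ones, while the deposited scanner files name 238 and 96. Per the file headers, the deposited files hold the mean intensity of each of 3968 spots per array, with no other unit or score stated. For the image software and any background step, the record is not given in the sources used here.

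For each probe, the median of its spots minus the empty-spot median was computed in Python 3.11.15 with numpy 2.4.6 and pandas 2.3.3, with no scaling between arrays. The steps were tested on simulated data. Values per array are in linear units, and the number of arrays limits the precision. Hairpin positions and arms come from RefSeq tables of GRCr8, with hosts on either strand, and 122 named targets equalled a RefSeq mature sequence. Probes named are the 20 brightest, members of the tissue lists, the 5 probes on each side of each threshold, the 10 widest spreads, and the arm and near-identical pairs with a clearly present member. Probes at a threshold were ranked by their lowest array above it and by their highest array below it. A few others, such as members of shared seeds, clusters, predicted probes, control spots and the probes high on array 1, were chosen after their values were seen, as was pairing arms by sequence. The members and lists were chosen with earlier results of these data known. Alternatives were the mean of spots, other limits and levels, scaling to 1 median, normexp (offset 50) with quantile normalisation in limma 3.58.1 under R 4.3.3, leaving out each array, and the authors' deposited value table, whole-number intensity values taken as linear. That table lists 162 probes and has medians of 360.5, 362.5 and 326.5 for the control arrays. Over 148 probes its log2 values followed log2 net brightness at 0.969, 1.000 and 0.999, so its direction is the same, while its scale and centring stay unknown.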

Additional observations from a re-analysis of the deposited data

How the results depend on the processing

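No paired analysis was possible because only the control group was used, so no groups share replicate numbers. The precision rests on 3 arrays, and dim probes lie close to the empty spots. The count of clearly present probes was 103 at a level of 100, 57 at 1000, and 69 to 75 under the other settings. It was 69 to 71 with 1 array left out. All 69 remained under scaling to 1 median, quantile normalisation after normexp and the authors' deposited value table. Those settings added miR-451, miR-199a with miR-451, and miR-106b, miR-199a, miR-451 and miR-92. Without array 1 miR-341 and miR-92 were added, and without array 3 miR-199a and miR-451. Probes without signal numbered 140 to 158 with 1 array left out, 155 at the 99th percentile, 152 at the median plus 3 scaled MAD, and 56 over named probes alone, where fewer probes were counted. Probes above background throughout numbered 151 to 162 with 1 array left out. The median SD of log2 brightness was 0.114 after quantile normalisation, which evens out the arrays by construction. With 1 array left out it was 0.098 to 0.158, lowest without array 2, but those SDs rest on 2 arrays each and not 3. The share of the 10 brightest was 40.2% over the 162 probes of the authors' deposited table, and 40.8 to 41.3% with 1 array left out. The correlation of GC share with brightness was -0.29 to -0.21 with 1 array left out. The order of the 11 arm pairs was kept in 11 of 11 with any 1 array left out, with the mean of spots and after quantile normalisation. These pairs had been chosen for a clearly present arm, so a kept order was likely from the start. Of 148 named probes, the mean moved by at least 1 SD for 54 after quantile normalisation and for 42 in the authors' deposited table. It did so for 1 with the mean of spots and for 0 under scaling. The number was also 0 with 1 array left out. That result was fixed in advance, because leaving out 1 of 3 arrays cannot shift a mean by 1 SD of those arrays. In the authors' deposited table miR-126* stands at 1 on array 1, where the spots gave 890.5 units.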

Other observations

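Probes without signal on any array included 56 named rat miRNAs. Among them were miR-135a and miR-135b, which share a seed and averaged 1.06 and -0.978 units, and miR-211, which averaged -1.44 units beside miR-204 at 111.5, a pair differing by A17U. MiR-7b averaged -3.70 units beside miR-7 at 58.3, 34.7 and 22.9 units, a pair differing by A10U. The paired miRNAs miR-221 and miR-222, known from vessel walls and dividing cells, were dim on all arrays with means of 352.4 and 245.9 units, and their hairpins lie together on chromosome X. Of the 47 probes above background on 1 or 2 arrays, array 3 contributed 35, array 1 23 and array 2 8, in the reverse order of their empty-spot limits of 31.6, 43.0 and 53.6 units.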
